A study of Mus musculus with 15 samples.

Results

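Fat cells store triglyceride in a lipid droplet and secrete hormones. The genes described here are 10 general adipocyte genes, chosen by name and read from the brightest probe set that names exactly 1 gene. They encode the lipid droplet coat proteins Plin1, Plin4 and Plin5, the droplet protein Cidec, the secreted adipokines Adipoq, Lep, Retn and Cfd, the fatty acid carrier Fabp4, and the nuclear receptor Pparg. Of the 10 genes 9 were measured, each by 1 probe set, out of 22180 genes measured in this way, and Cfd was not analysed here.

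The study used 15 expression arrays of RNA from segments of the mouse aorta. The mice, of inbred strain DBA/2NCrl, started their diets at 8 weeks of age and stayed on them for 5 days. The groups were 3 arrays of thoracic aorta on a high-phosphate diet (20.2 g phosphorus per kg), 4 of thoracic aorta on standard chow (7.0 g per kg), 4 of abdominal aorta on the high-phosphate diet and 4 of abdominal aorta on chow. Arrays are called biological replicates, and the labels do not say whether animals were pooled, whether a mouse gave both of its segments, or whether the fat around the vessel was removed.

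The aorta is wrapped in perivascular fat, which in mice resembles brown fat around the thoracic segment. Perilipins control the access of lipases to the stored lipid, and PPARG is the transcription factor that drives fat cell formation and many adipocyte genes, among them those for perilipin 1, adiponectin, FABP4 and CIDEC. Adipokines signal to other tissues: leptin reports fat stores to the brain, adiponectin acts on metabolism, and resistin is made by adipocytes in mice.

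The upstream sequence of the genes that moved most, Retn and Plin1, is shown beside that of the hormone genes Adipoq and Lep, which moved less or were not called. The sequences are from RefSeq, build GRCm38.p6, read 5′ to 3′ on the gene's strand, and lie before the annotated gene. The coordinates are chr8:3655520-3655769 on the plus strand for Retn, chr7:79732905-79733026 on the minus strand for Plin1, chr16:23146286-23146535 on the plus strand for Adipoq and chr6:29059971-29060220 on the plus strand for Lep. Capitals mark CCAAT on either strand (read as ATTGG on the other) in Adipoq, and TTGCGCAA, a palindrome bound by C/EBP factors, in Lep.
Retn: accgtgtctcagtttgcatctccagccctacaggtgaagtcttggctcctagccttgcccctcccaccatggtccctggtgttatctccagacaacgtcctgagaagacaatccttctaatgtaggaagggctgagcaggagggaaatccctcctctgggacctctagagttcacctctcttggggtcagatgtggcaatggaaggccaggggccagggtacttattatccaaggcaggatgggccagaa
Plin1: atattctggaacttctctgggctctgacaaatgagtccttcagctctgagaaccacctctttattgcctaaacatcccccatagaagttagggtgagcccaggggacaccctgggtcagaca
Adipoq: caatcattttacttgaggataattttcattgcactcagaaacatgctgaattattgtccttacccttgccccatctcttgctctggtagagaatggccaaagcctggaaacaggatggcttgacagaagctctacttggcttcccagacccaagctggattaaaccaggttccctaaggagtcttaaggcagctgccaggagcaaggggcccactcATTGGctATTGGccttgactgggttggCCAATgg
Lep: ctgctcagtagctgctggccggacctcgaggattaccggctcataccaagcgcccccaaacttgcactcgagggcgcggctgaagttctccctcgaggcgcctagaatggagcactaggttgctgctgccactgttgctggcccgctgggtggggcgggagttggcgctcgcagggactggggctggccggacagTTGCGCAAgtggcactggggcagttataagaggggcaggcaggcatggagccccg

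RefSeq promoter entries were found for 9 of the 10 genes, with 13 start sites in all, and Fabp4 had none. PPARG binds, with its partner RXR, a pair of AGGTCA half-sites that are 1 base apart. This pair, AGGTCA followed by any 1 base and AGGTCA again, was searched on both strands in the 250 bases before each start. It was in 0 of the 13 windows when up to 2 mismatches were allowed, against 3.24% of all 32851 promoters. A single AGGTCA was in windows of Plin5 and Pparg, against 14% of all promoters. CCAAT was in windows of Adipoq, Plin4, Plin5 and Pparg (33.8% of all promoters), and TTGCGCAA was in that of Lep, at bases -55 to -48 counted from the start (0.164% of all promoters). The glucocorticoid receptor motif, GNACA and TGTNC with any 3 bases between them, was in 0 of the 13 windows, against 0.387% of all. A match is a description of letters, and other parts of these genes were not searched.

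Values below are log2 intensities as deposited, and a difference of 1 is a 2-fold difference. Array medians lay between 5.78 and 5.84, and all values between 1.38 and 13.33. Smooth muscle and endothelial markers were present on all arrays, with Acta2, smooth muscle actin, between 10.87 and 12.08 and the endothelial gene Pecam1 between 9.27 and 9.84. Several arrays also carried markers of other tissues. Arrays 3 and 4 of the abdominal high-phosphate group had a mean of 8.56 and 10.81 over 11 hepatocyte markers. Array 4 of thoracic chow had 6.50, and the other 12 arrays had 5.01 to 5.71. The mean of 9 lymphocyte and lymph node markers was 8.45 to 9.09 in abdominal high-phosphate arrays 1, 2 and 4 and 8.21 and 8.86 in abdominal chow arrays 2 and 4, against 5.57 to 6.93 in the other 10. The lymph node gene Glycam1, one of these markers, was 12.20 to 12.78 in abdominal high-phosphate and 8.95 to 12.69 in abdominal chow arrays. It was 6.28 to 6.43 and 6.35 to 6.76 in the thoracic arrays, so every abdominal array carried more of it.

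In abdominal aorta the high-phosphate diet went with a large loss of Plin1 and Retn signal, and a small loss of Adipoq. The fall was 3.27-fold for Plin1, which coats the droplet and restrains lipolysis in white and brown adipocytes, 2.95-fold for Retn, the resistin gene, and 1.4-fold for Adipoq, the adiponectin gene. The differences of Cidec, Fabp4, Lep, Plin4, Plin5 and Pparg did not pass the test. In thoracic aorta Retn fell 1.75-fold, and Plin1 was lower in each high-phosphate array than in any chow array without passing the test. In a bulk sample fewer fat cells and less RNA per fat cell cannot be told apart.

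**Figure D1:**
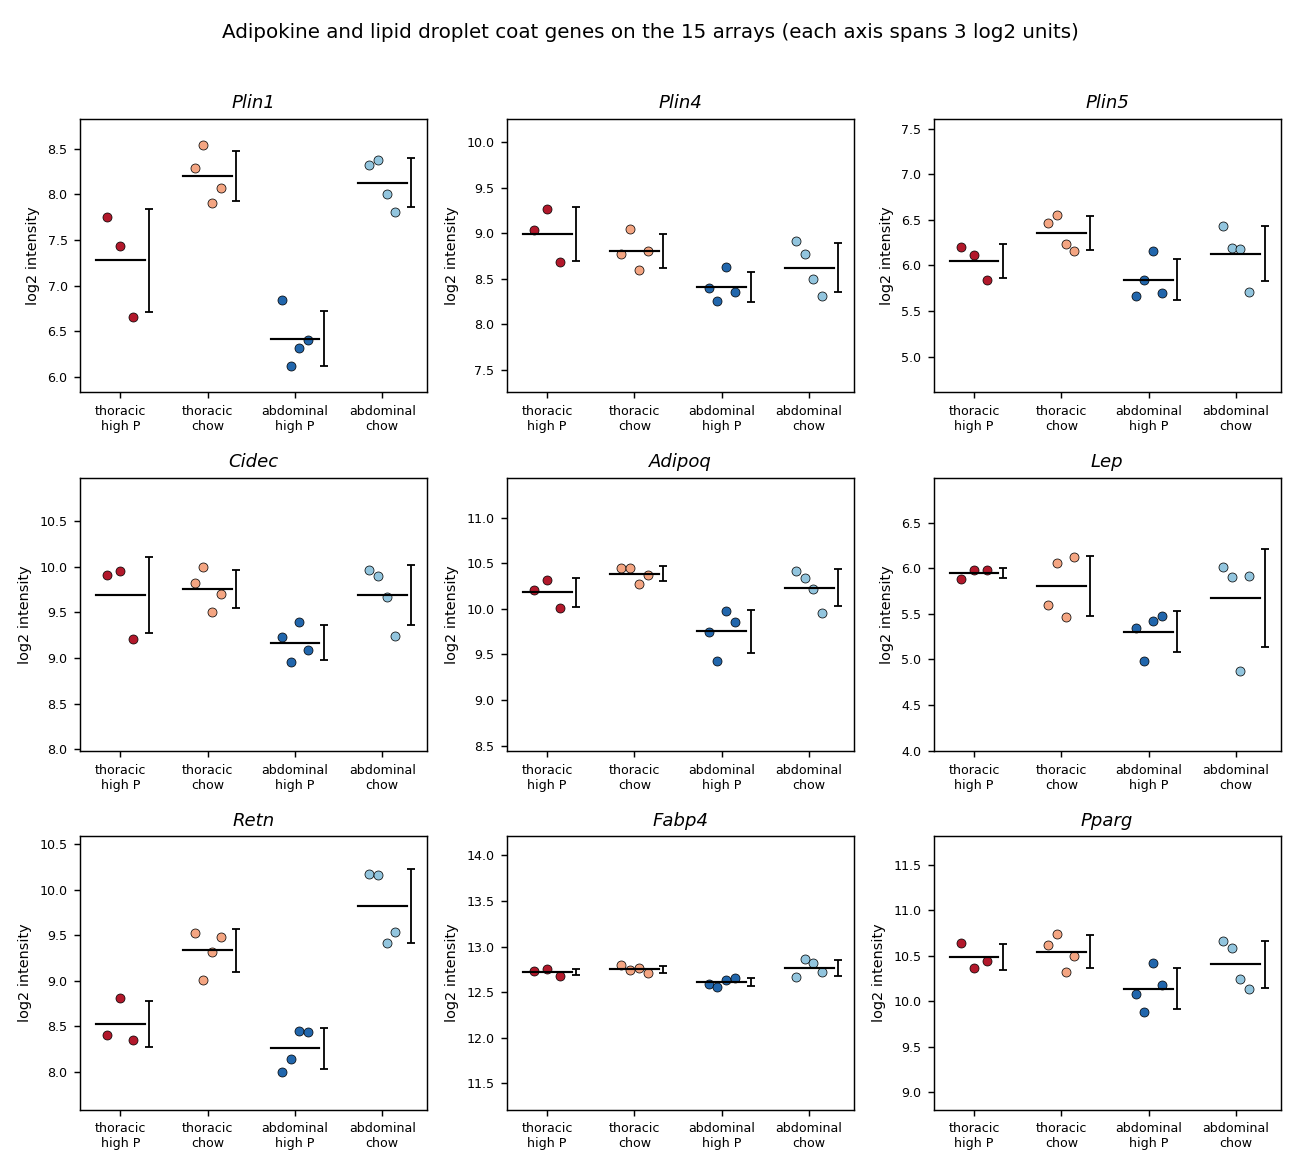
Log2 intensity of the 9 measured genes on each array. Points are arrays, horizontal lines group means and vertical bars 1 SD to either side, and the axis of every panel spans 3 log2 units. The abdominal high-phosphate points of Plin1 (6.12 to 6.84) and Retn (8.00 to 8.45) lie below all abdominal chow points (7.81 to 8.38 and 9.41 to 10.17), whereas those of Pparg and Plin4 overlap.

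Plin1 stood at 6.84, 6.12, 6.31 and 6.40 in the 4 abdominal high-phosphate arrays, against 8.32, 8.38, 8.00 and 7.81 in the 4 abdominal chow arrays. All 4 high-phosphate arrays lay below all 4 chow arrays. The change was -1.71 ± 0.219 (SE; adjusted p = 0.000237, limma). Here and below, p-values are from limma, fitted to all 22180 genes and Benjamini-Hochberg adjusted over them, and a gene was called at an adjusted p under 0.05. In thoracic aorta Plin1 stood at 7.75, 7.43 and 6.65 in the 3 high-phosphate arrays, against 8.29, 8.54, 7.91 and 8.07 in the 4 chow arrays. Again every high-phosphate array lay below every chow array, with array 3 lowest. The change of -0.93 ± 0.237 missed the threshold (adjusted p = 0.0543), and its adjusted p lay between 0.0153 and 0.222 under other settings. With 1 thoracic array left out the change was -1.16 to -0.61, and the smallest, with the adjusted p of 0.222, was that without high-phosphate array 3.

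Plin4 and Plin5, both on chromosome 17 next to each other, differ in where they are found. Plin4 coats small new droplets, mostly in white fat, and Plin5 is the perilipin of oxidative tissues such as heart and brown fat, where it links droplets to mitochondria. Plin4 was 8.40, 8.25, 8.63 and 8.35 in the abdominal high-phosphate arrays, against 8.91, 8.77, 8.50 and 8.31 in the abdominal chow arrays, and the groups overlapped. Its difference was -0.21, with a 95% interval from -0.52 to 0.10, in abdominal aorta and 0.19 (-0.15 to 0.52) in thoracic aorta. Plin5 differed by -0.28 (-0.61 to 0.04) in abdominal and -0.31 (-0.66 to 0.04) in thoracic aorta. In each segment these intervals leave out a fall as large as the estimate for Plin1. Plin5 was dim, however, at 5.67 to 6.43 in abdominal and 5.84 to 6.55 in thoracic arrays, near the array medians of 5.78 to 5.84. Whether this low signal limits the size of its differences was not tested. Heart muscle also makes Plin5. The mean of 10 cardiac markers was 5.82 to 5.99 in abdominal high-phosphate and 5.95 to 6.01 in abdominal chow arrays. It was 8.38 to 8.84 in thoracic high-phosphate and 7.83 to 8.62 in thoracic chow arrays, and overlapped between the diets in both segments. Of these markers limma called 1 lower in abdominal aorta and Nppa higher in thoracic aorta (1.15, adjusted p = 0.0264). Thoracic Sln (0.95) and Myh6 (0.64) were higher and Myl4 (-0.26) lower at an unadjusted p under 0.05, without being called. The part of heart muscle in the Plin5 values was not tested.

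Cidec promotes the fusion and growth of lipid droplets and is needed for the large single droplet of white adipocytes. It stood at 9.23, 8.96, 9.40 and 9.09 in abdominal high-phosphate arrays, against 9.97, 9.90, 9.67 and 9.24 in abdominal chow arrays. Only chow array 4 reached into the range of the high-phosphate group. The difference was -0.53 ± 0.179 (adjusted p = 0.0984), and without that chow array it was -0.68 (adjusted p = 0.0233). In thoracic aorta Cidec differed by -0.06 (-0.47 to 0.35).

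Among the adipokine genes Retn had the largest fall. Retn stood at 8.00, 8.14, 8.45 and 8.44 in the abdominal high-phosphate arrays, against 10.17, 10.16, 9.41 and 9.53 in the abdominal chow arrays. No array of one group reached the other, and the change was -1.56 ± 0.181 (adjusted p = 0.000132). In thoracic aorta Retn stood at 8.41, 8.81 and 8.35 on high phosphate, against 9.52, 9.01, 9.32 and 9.48 on chow, a change of -0.81 ± 0.196 (adjusted p = 0.0418). This call is close to its limit: leaving out 1 thoracic array at a time gave changes of -0.95 to -0.72 with adjusted p up to 0.16, and the call was lost without any of the high-phosphate arrays and without chow array 1, 3 or 4.

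Adipoq fell less. It stood at 9.74, 9.43, 9.98 and 9.86 in the abdominal high-phosphate arrays, against 10.42, 10.34, 10.22 and 9.95 in the abdominal chow arrays. The groups overlapped by the margin between high-phosphate array 3 and chow array 4. The change was -0.48 ± 0.118 (adjusted p = 0.0214), and it was not called without high-phosphate array 1 or 2 or chow array 1 or 2 (-0.48 to -0.37, adjusted p from 0.0538 to 0.0837). Its adjusted p was 0.0866 when just the 2 abdominal groups were fitted. In thoracic aorta the difference was -0.20 (-0.48 to 0.07), with 10.01 to 10.32 on high phosphate and 10.27 to 10.45 on chow.

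Lep encodes leptin. It stood at 5.34, 4.98, 5.42 and 5.48 in abdominal high-phosphate arrays, against 6.01, 5.90, 4.87 and 5.91 in abdominal chow arrays. Chow array 3 lay below all 4 high-phosphate arrays, whereas the other 3 chow arrays lay above them. The difference was -0.37 (-0.84 to 0.10; adjusted p = 0.395), and without chow array 3 it was -0.63 (adjusted p = 0.0303). In thoracic aorta Lep stood at 5.88 to 5.98 on high phosphate and 5.46 to 6.12 on chow, a difference of 0.14 (-0.37 to 0.64). Its values of 4.87 to 6.12 lay around or below the array medians of 5.78 to 5.84. How much of this signal is background was not tested.

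Fabp4 carries fatty acids in adipocytes, and is also made by capillary endothelium and macrophages. It lay near the top of the scale, at 12.59, 12.56, 12.63 and 12.66 in abdominal high-phosphate arrays, against 12.67, 12.86, 12.82 and 12.72 in abdominal chow arrays, where the highest value of any probe set was 13.33. The groups narrowly failed to overlap, but the difference of -0.16 ± 0.0471 was not called (adjusted p = 0.0627). Whether brightness limits the size of this difference was not tested. The difference was called after quantile normalization (-0.13, adjusted p = 0.018) and after median centring (-0.19, adjusted p = 0.0194). In thoracic aorta it was -0.03 (-0.14 to 0.07).

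Pparg stood at 10.08, 9.88, 10.42 and 10.18 in abdominal high-phosphate arrays, against 10.66, 10.59, 10.24 and 10.13 in abdominal chow arrays. Chow arrays 3 and 4 lay within the high-phosphate range. Its difference was -0.26 (-0.55 to 0.02; adjusted p = 0.291) in abdominal and -0.06 (-0.37 to 0.25; adjusted p = 0.932) in thoracic aorta.

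**Figure D2:**
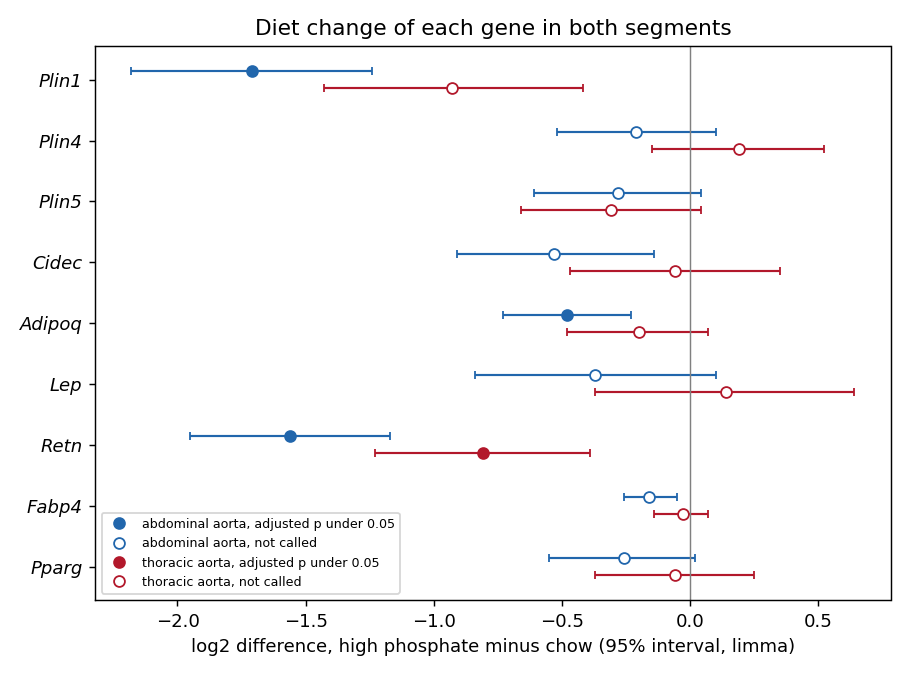
Diet change of each gene (x axis, log2 difference of high phosphate minus chow) in abdominal and thoracic aorta. Points are limma estimates, bars 95% intervals, and filled points passed an adjusted p of 0.05. Plin1 and Retn stand apart at -1.71 and -1.56 in abdominal aorta, and most other intervals include 0.

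In count, 3 of the 9 measured genes were called lower in abdominal aorta and 0 higher, where 7.01% of all genes were called, 5.06% lower and 1.95% higher. In thoracic aorta 1 of 9 was called lower, where 2.47% of all genes were called, 1.08% lower. All 9 abdominal estimates and 7 of the 9 thoracic ones lay below 0, as 51.9% and 53% of all genes did. Their median was -0.37 in abdominal and -0.06 in thoracic aorta, against -0.008 and -0.011 over all genes. Averaged over the segments, Retn (-1.18 ± 0.133; adjusted p = 4.32e-05), Plin1 (-1.32 ± 0.161; adjusted p = 8.2e-05) and Adipoq (-0.34 ± 0.0866; adjusted p = 0.0176) were called lower, where 10.7% of all genes were called, 6.18% lower. Groups did not overlap, with high phosphate lower, for 3 genes in abdominal aorta (7.75% of all genes) and 2 in thoracic aorta (6.67% of all genes).

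The abdominal changes held without the 2 abdominal high-phosphate arrays with hepatocyte markers. There Plin1 changed by -1.65 (adjusted p = 0.00392), Retn by -1.75 (adjusted p = 0.00076) and Adipoq by -0.65 (adjusted p = 0.00849). When the 5 arrays with lymphocyte markers were left out, 1 abdominal array on high phosphate and 2 on chow remained, and 0 of the 9 genes were called by limma, with 3 at an unadjusted p under 0.05, and 137 of all genes (0.618%) were called. The estimates there were -1.85 for Plin1 (adjusted p = 0.0616), -1.34 for Retn (adjusted p = 0.0834) and -0.34 for Adipoq (adjusted p = 0.412), the lone high-phosphate array being assumed to vary like the other groups. In that fit the remaining high-phosphate array still had a hepatocyte mean of 8.56 and a value of at least 12.20 for the lymph node gene Glycam1. Averaged over the segments, the changes without the 2 arrays were -1.29 for Plin1 (adjusted p = 0.000713), -1.28 for Retn (adjusted p = 0.000131) and -0.43 for Adipoq (adjusted p = 0.00539). Without the 5 arrays they were -1.39 for Plin1 (adjusted p = 0.00674) and -1.08 for Retn (adjusted p = 0.0076), and Adipoq lost its call (-0.27, adjusted p = 0.109).

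Since Adipoq is made almost only by fat cells, each gene's signal was also taken relative to Adipoq on the same array, a measure chosen after the values were seen. Plin1 over Adipoq changed by -1.23 ± 0.188 in abdominal aorta (adjusted p = 0.000622) and Retn over Adipoq by -1.08 ± 0.166 (adjusted p = 0.000644). In thoracic aorta they differed by -0.72 ± 0.203 (adjusted p = 0.106) and -0.60 ± 0.18 (adjusted p = 0.129). The groups did not overlap in either segment for either ratio. Without the 2 arrays with hepatocyte markers the abdominal changes were -1 for Plin1 over Adipoq (adjusted p = 0.00177) and -1.10 for Retn over Adipoq (adjusted p = 0.00119). Without the 5 with lymphocyte markers they were -1.51 (adjusted p = 0.0424) and -1.01, the second no longer called (adjusted p = 0.117). In abdominal aorta Cidec over Adipoq differed by -0.05 (-0.35 to 0.25), Plin4 over Adipoq by 0.27 (-0.01 to 0.54) and Pparg over Adipoq by 0.22 (-0.06 to 0.49). The Pparg ratio did not overlap between the diets, at 0.31 to 0.45 in abdominal high-phosphate and 0.02 to 0.24 in abdominal chow arrays. Fabp4 over Adipoq differed by 0.33 (0.02 to 0.63) there without being called (unadjusted p = 0.0361, adjusted p = 0.052). Without the 2 arrays Fabp4 over Adipoq was called by limma (0.46, unadjusted p = 0.0144, adjusted p = 0.0208). So was Plin4 over Adipoq (0.36, unadjusted p = 0.0363, adjusted p = 0.0451). Adjusted p so close to unadjusted p mean that a large share of all genes passed in that fit. That share, and the share of ratios without overlap, were not counted, so these calls do not set the 2 genes apart. Without the 5 arrays, with 1 abdominal high-phosphate array left, the 2 ratios differed by 0.22 and 0.27. In thoracic aorta Plin4 over Adipoq stood at -1.33 to -1.05 on high phosphate and -1.68 to -1.40 on chow with no overlap, and its difference of 0.39 (0.09 to 0.69) was not called (unadjusted p = 0.0125, adjusted p = 0.249). The ratios share the Adipoq values, and they show unequal change, not which gene of a pair changed.

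**Figure D3:**
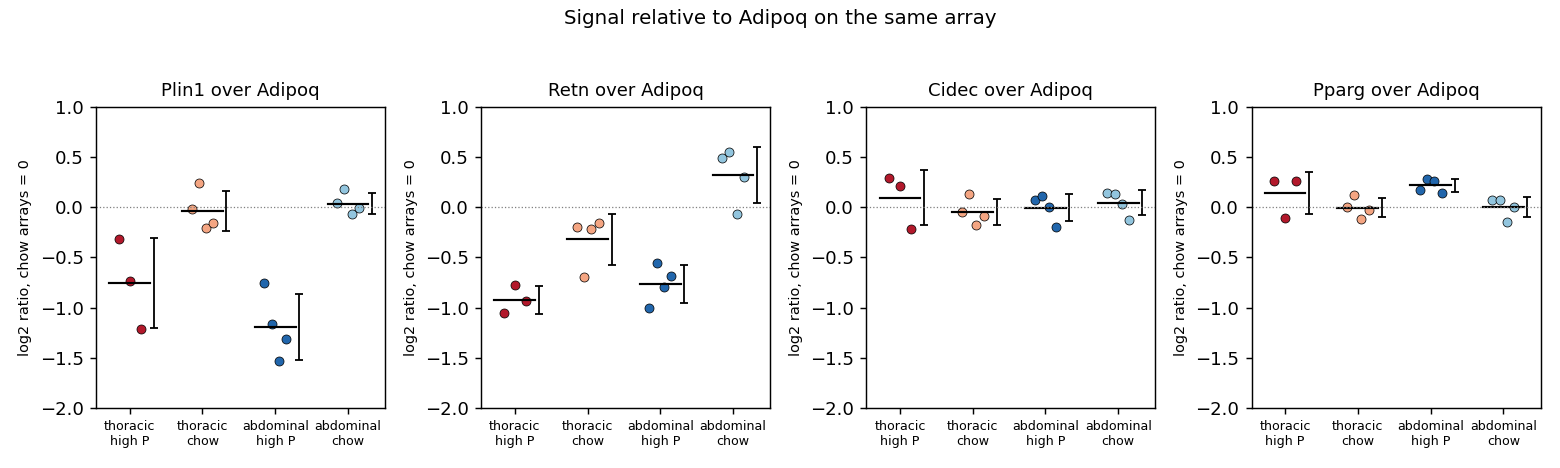
Log2 ratio of Plin1, Retn, Cidec and Pparg to Adipoq on each array, shifted so that the mean of the 8 chow arrays is 0. Lines are group means and bars 1 SD. Plin1 and Retn over Adipoq are lower in every high-phosphate array than in any chow array of the same segment. The ranges of Cidec over Adipoq overlap, and Pparg over Adipoq is higher in every abdominal high-phosphate array than in any abdominal chow array.

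No gene was called by the test of the difference in diet change between the segments. That difference was -0.78 ± 0.323 for Plin1 (abdominal minus thoracic change; unadjusted p = 0.0282, adjusted p = 0.879) and -0.75 ± 0.267 for Retn (unadjusted p = 0.013, adjusted p = 0.879). The other 7 genes had adjusted p from 0.879 to 0.993. Over all 22180 genes limma called 0, with 1217 at an unadjusted p under 0.05, which is 5.49%.

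Between segments on the high-phosphate diet, all 9 genes had higher estimates in thoracic than in abdominal aorta, where 42.7% of all genes had lower ones. Of the 9 genes 3 were called. These were Plin1 (7.28 ± 0.56 in thoracic and 6.42 ± 0.30 in abdominal arrays, SD, n = 3 and 4; 0.86 ± 0.237, limma adjusted p = 0.0259), Plin4 (8.99 ± 0.29 and 8.41 ± 0.16; 0.58 ± 0.157, adjusted p = 0.0235) and Adipoq (10.18 ± 0.15 and 9.75 ± 0.24; 0.43 ± 0.127, adjusted p = 0.0371). Over all genes 13.8% were called, 7.57% higher. The thoracic and abdominal ranges did not overlap for Plin4, Adipoq, Lep and Fabp4 (13.7% of all genes, thoracic higher), while thoracic array 3 put Plin1 inside the abdominal range. The 3 calls were fragile. Leaving out 1 array at a time gave 0 to 4 called genes, against 7.64% to 18.1% of all genes. The count was 0 without abdominal array 2 and without thoracic array 1 or 2, and 1 without abdominal array 1 or 4. With just the 2 high-phosphate groups fitted, Plin1 and Adipoq lost their calls (adjusted p = 0.0757 and 0.0859), Plin4 was called (adjusted p = 0.0417) and Lep gained a call (0.64, adjusted p = 0.0185). Without the 2 arrays with hepatocyte markers Plin1 lost its call (0.80, adjusted p = 0.0877), Plin4 (0.67, adjusted p = 0.0273) and Adipoq (0.60, adjusted p = 0.00931) were called, and Pparg gained a call (0.51, adjusted p = 0.0444). Without the 5 with lymphocyte markers 0 were called by limma, with 1 at an unadjusted p under 0.05 (0.97 for Plin1, 0.36 for Plin4 and 0.20 for Adipoq).

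On chow 0 of the 9 genes were called between thoracic and abdominal aorta by limma, where 4.78% of all genes were, and 1 had an unadjusted p under 0.05, as 19.4% of all genes did. That gene was Retn, at 9.33 ± 0.23 in thoracic and 9.82 ± 0.40 in abdominal arrays (SD, n = 4 each; -0.49 ± 0.181, adjusted p = 0.149). The remaining estimates lay between -0.01 and 0.23. Cardiac muscle markers stood at 7.83 to 8.62 in thoracic and 5.95 to 6.01 in abdominal chow arrays, and at 8.38 to 8.84 and 5.82 to 5.99 on high phosphate. Smooth muscle markers averaged 9.05 to 9.27 in thoracic and 8.03 to 8.70 in abdominal high-phosphate arrays. The part of these tissues in the segment differences was not tested.

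In order of level, Plin1 was highest in thoracic chow, then abdominal chow, thoracic high-phosphate and abdominal high-phosphate arrays, with the chow pair within their spread (8.20 ± 0.27 and 8.13 ± 0.27). Retn was highest in abdominal chow, then thoracic chow, thoracic high-phosphate (8.52 ± 0.25) and abdominal high-phosphate arrays (8.26 ± 0.22), the last pair again within their spread. For Adipoq the order was that of Plin1, and the middle groups, abdominal chow at 10.23 ± 0.20 and thoracic high phosphate at 10.18 ± 0.15, did not differ beyond their spread.

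The 9 genes varied together to different degrees. Over the 15 arrays, which share the group differences, Pearson's r between pairs ran from 0.225 (Lep and Fabp4) to 0.902, with a median of 0.679 over 36 pairs. After removal of the group means it ran from -0.32 to 0.946 with a median of 0.482. Plin4 and Cidec followed the mean of the other 8 genes most closely within groups (r = 0.92 and 0.89), Lep and Fabp4 least (0.332 and 0.162). Within groups Fabp4 had r of -0.32 to 0.377 with the other genes.

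The genes outside the set whose values followed its mean most closely over the 15 arrays were Aoc3, an amine oxidase of adipocytes and smooth muscle (r = 0.972), Gprc5b, an orphan receptor (0.972), the tetraspanin Tspan12 (0.971), A530053G22Rik (0.969) and Atp5b, a subunit of ATP synthase (0.967). Their r within groups was 0.858 to 0.909. Their abdominal diet changes were -0.93, -0.80, -1.04, -1.39 and -0.34, larger for the first 4 than those of 7 of the 9 genes described here.

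For the lists that follow, limma called 7.01% of all genes in abdominal aorta, 2.47% in thoracic aorta and 10.7% averaged over the segments. At an unadjusted p under 0.05 the shares were 20% in abdominal and 13.8% in thoracic aorta. Other genes of the droplet were read from a list of 20, of which 19 were measured. In abdominal aorta 6 fell and 0 rose, with a median of -0.13. They were Mgll, which cleaves the last fatty acid from glycerol (-1.18 ± 0.145), Plin2, the perilipin found on droplets of most cells (-1.15 ± 0.152), Lipe, hormone-sensitive lipase (-0.99 ± 0.161), G0s2, an inhibitor of the lipase ATGL (-0.95 ± 0.228), Cidea, a relative of Cidec in brown fat (-0.91 ± 0.146), and Bscl2, the seipin gene (-0.56 ± 0.0931). Among the perilipin genes Plin1, Plin2, Plin4 and Plin5, the first 2 thus passed the test in abdominal aorta. Plin4 and Plin5 did not, without a test of the difference between them. In thoracic aorta 2 fell, Mgll (-0.86 ± 0.157) and Plin2 (-0.71 ± 0.164), though 0 to 2 did with 1 array left out.

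Of 24 other adipokine genes 22 were measured. In abdominal aorta 3 fell: Nrg4, a growth factor released by brown fat (-1.27 ± 0.205), Retnla, a resistin-like gene also made by macrophages (-0.59 ± 0.12), and the vessel growth factor Vegfa (-0.54 ± 0.146). In thoracic aorta 0 were called by limma and 8 had an unadjusted p under 0.05, with the smallest adjusted p for Apln (-0.69, 0.0746) and Lcn2 (1.28, 0.0963). Averaged over the segments Lcn2, the lipocalin induced in inflammation and by glucocorticoids, rose (1.09 ± 0.257) and 6 fell.

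Of 11 receptor genes of adipokines 3 fell and 1 rose in abdominal aorta. Adipor2, an adiponectin receptor, fell by 0.70, and its level was 8.38 on high phosphate and 9.08 on chow (adjusted p = 0.00212). Klb, the co-receptor of FGF21 (-0.96 ± 0.197), and Aplnr, the apelin receptor (-0.78 ± 0.161), fell too. Lepr, the leptin receptor, rose (1.21 ± 0.335, adjusted p = 0.0396), with overlapping groups. In thoracic aorta Aplnr fell (-0.70 ± 0.174, adjusted p = 0.0455), and Adipor2 and Lepr differed by -0.33 and 0.28 without passing the test. The 4 abdominal calls were also made without the 2 arrays with hepatocyte markers, and without the 5 with lymphocyte markers Aplnr alone was called (-1.18, adjusted p = 0.0371), with Lepr at 0.89 (adjusted p = 0.241).

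Cfd encodes factor D, which cleaves factor B in the alternative complement pathway. Of 12 complement genes around it 9 were measured, and 1, Cd46, rose in both segments (0.59 ± 0.105 in abdominal and 0.74 ± 0.113 in thoracic aorta). Cfi, Hc and Masp1, which the liver makes, differed by 1.61, 1.21 and 0.88 in abdominal aorta without passing the test, and the list mean there was 6.60 to 7.63 on high phosphate and 6.14 to 6.45 on chow. The hepatocyte marker mean was 5.06 to 10.81 in the same high-phosphate arrays and 5.01 to 5.17 in the chow arrays.

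Of 23 partners of PPARG and other adipogenic factors 21 were measured. In abdominal aorta 5 fell and 1 rose. The coactivators Ppargc1a (-1.15 ± 0.252) and Ppargc1b (-0.84 ± 0.149), the fatty acid receptor Ppara (-1 ± 0.25) and the brown fat factors Ebf2 (-0.81 ± 0.166) and Prdm16 (-0.43 ± 0.104) fell, and Cebpd, an early adipogenic factor that glucocorticoids induce, rose (0.75 ± 0.164). In thoracic aorta Ppargc1b alone was called (-0.68 ± 0.161).

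The targets of PPARG formed the list with the lowest abdominal median among the 6 pathway lists. Of 25 targets 20 were measured, and 14 fell and 0 rose in abdominal aorta, with a median of -1.19, against -0.26 for Pparg itself. They included Agpat2, which acylates lysophosphatidic acid (-2.31 ± 0.188), the diacylglycerol acyltransferase Dgat2 (-1.52 ± 0.235), the niacin receptor Hcar2 (-1.35 ± 0.123), Trarg1, which regulates glucose transporter traffic (-1.35 ± 0.195), the glycerol channel Aqp7 (-1.21 ± 0.199) and the fatty acid transporter Cd36 (-0.35 ± 0.0744). In thoracic aorta 5 fell, namely Agpat2 (-1.77 ± 0.203), Ucp1, Mgll, Trarg1 (-0.94 ± 0.211) and Hcar2 (-0.61 ± 0.133), with a median of -0.60 and with 2 to 5 called when 1 array was left out. These targets are also controlled by other factors, and several are genes of brown fat.

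Brown adipocyte markers moved with these results. Of 12 such genes, some of them also in the lists above, 10 fell in abdominal and 5 in thoracic aorta. Their mean was 7.48 to 7.95 in thoracic high-phosphate and 8.41 to 8.67 in thoracic chow arrays, and 6.86 to 7.27 in abdominal high-phosphate and 8.08 to 8.47 in abdominal chow arrays, with no overlap within a segment. Of 9 preadipocyte and adventitial fibroblast markers 4 fell in abdominal aorta (Lum, Dpt, Pi16 and Cd34), with a list mean of 8.19 to 8.26 on high phosphate and 8.56 to 8.78 on chow, and 0 were called in thoracic aorta by limma, with 3 at an unadjusted p under 0.05. The part of these cells in the changes of the 9 genes was not tested.

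The abdominal counts of these lists were also taken without the arrays with markers of other tissues, in a repeat added after the values were seen. Leaving out the 5 arrays with lymphocyte markers kept 1 abdominal array on high phosphate and 2 on chow. Calls lost in that fit cannot be told apart from the effect of fewer arrays. Without the 2 arrays with hepatocyte markers limma called 7.81% of all genes. In that fit 6 droplet genes, 3 adipokine genes, 5 adipogenic factors, 10 PPARG targets, 10 brown adipocyte markers and 4 fibroblast markers fell. By limma 0 adipogenic factors rose there, with Cebpd at 0.53 (adjusted p = 0.0622). The complement genes Cd46 and Cd55 and the brown adipocyte marker Lhx8 rose. Without the 5 arrays with lymphocyte markers the droplet genes, adipokine genes and fibroblast markers lost their calls. Their list medians there were -0.05, -0.06 and -0.27. The PPARG targets had a median of -0.96 in that fit, with Agpat2 lower by 2.17, Hcar2 by 1.27 and Ucp1 by 3.30. Brown adipocyte markers had a median of -0.91. Cebpd (1.27), Cfi (2.06) and Hc (1.33) were higher there, and the hepatocyte markers had a median difference of 3.39.

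**Figure D4:**
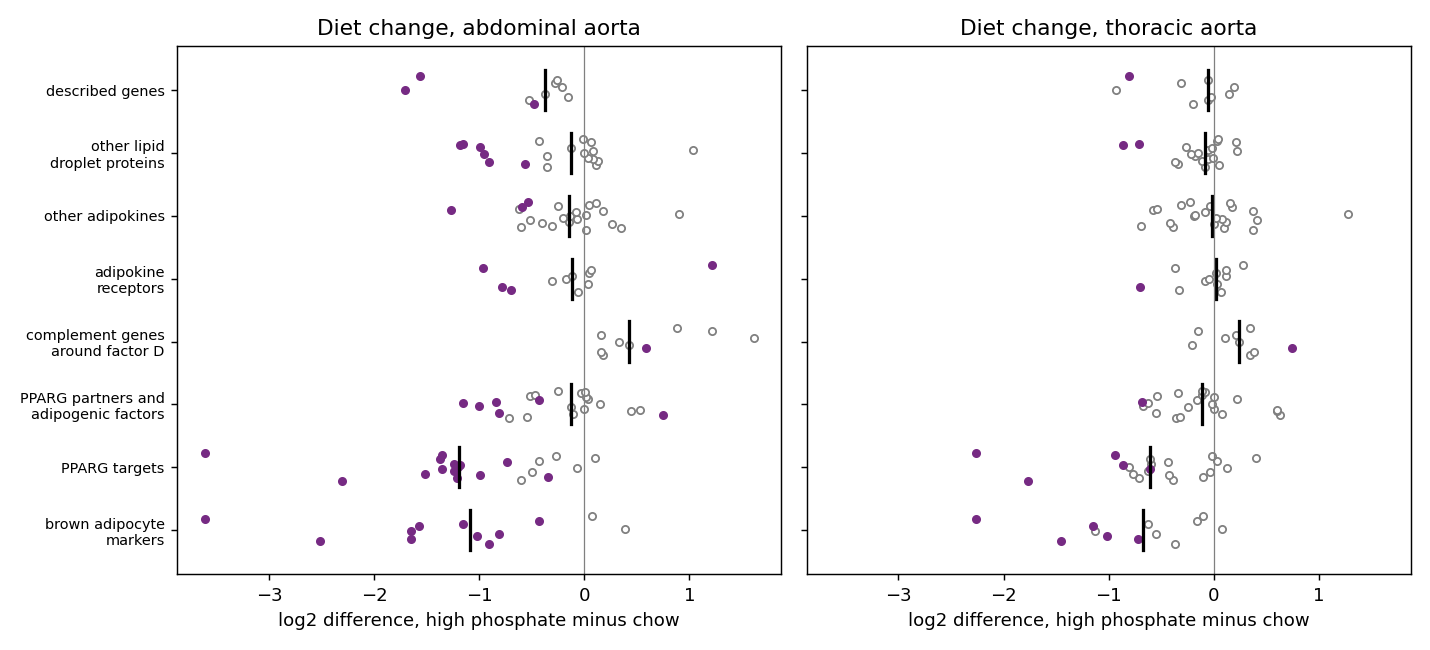
Diet change (x axis, log2 difference of high phosphate minus chow) of the 9 described genes and of each measured gene in 7 lists, in abdominal (left) and thoracic (right) aorta. Each point is a gene, filled where its adjusted p was under 0.05, and the black bar is the list's median. PPARG targets (median -1.19) and brown adipocyte markers (-1.08) lie further left in abdominal aorta than the described genes (-0.37).

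Other markers were read in the same way. Hepatocyte markers had a median difference of 2.33 in abdominal aorta, where limma called 0 of 11 and 10 had an unadjusted p under 0.05, and lymphocyte markers one of 0.89, with 0 of 9 called and 0 at an unadjusted p under 0.05. Macrophage markers averaged 7.85 to 8.19 in abdominal high-phosphate and 7.56 to 7.95 in abdominal chow arrays, and 7.87 to 8.41 in thoracic high-phosphate and 7.62 to 7.82 in thoracic chow arrays, without overlap in thoracic aorta. Of 10 macrophage markers 1 rose in abdominal aorta (C1qb) and 5 when averaged over the segments, and in thoracic aorta limma called 0, with 4 at an unadjusted p under 0.05. Averaged over the segments 5 were called without the 2 arrays with hepatocyte markers, where 11.3% of all genes were. Without the 5 with lymphocyte markers the median of the macrophage markers was 0.27. The part of macrophages in the changes of the 9 genes was not tested. Smooth muscle markers averaged 8.03 to 8.70 in abdominal high-phosphate and 8.11 to 8.74 in abdominal chow arrays. Of 10 such markers limma called 1 lower in abdominal and 1 higher in thoracic aorta. Without the 2 arrays with hepatocyte markers 3 were called lower in abdominal aorta, where 7.81% of all genes were called. The list median was -0.43 there and 0.06 without the 5 arrays with lymphocyte markers. Endothelial markers averaged 7.93 to 8.13 in abdominal high-phosphate and 8.05 to 8.29 in abdominal chow arrays, but single ones moved in opposite directions. Of 10 endothelial markers 1 rose and 2 fell in abdominal aorta. In thoracic aorta limma called Pecam1 higher (0.36, adjusted p = 0.0169) and Kdr lower (-0.59, adjusted p = 0.0481). Pecam1 did not overlap in abdominal aorta either, at 9.70 to 9.83 on high phosphate and 9.27 to 9.57 on chow. Skeletal muscle, mesothelial and sympathetic neuron markers had ranges that overlapped between diets in both segments, with skeletal muscle at 5.51 to 7.48 in abdominal high-phosphate and 5.52 to 8.06 in abdominal chow arrays. Of 9 sympathetic neuron and chromaffin markers limma called 1 higher in abdominal aorta.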

How the data were processed

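RNA of 15 aorta samples was amplified with a NuGEN Applause kit and hybridised to expression arrays, per the labels' protocols. The deposited values are log2 intensities of 41345 probe sets, made with RMA and Partek per the submitters' processing notes, whose versions are not given there. Base 2 was inferred, since no source names the base: values lie between 1.38 and 13.33. The genome build is not given in the sources used here.

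Probe sets naming exactly 1 gene numbered 23521, and the brightest was kept for each of 22180 genes, of which 22139 matched a RefSeq symbol. limma 3.58.1 in R 4.3.3 was fitted to the 4 group means over all arrays, with an intensity trend in the variance prior, and p-values were two-sided and Benjamini-Hochberg adjusted over all genes. The script was tested on simulated data. Correlations between arrays of a group were 0.974 to 0.989, and the number of arrays limits the precision. The p-values measure the spread between these arrays.

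The members, 6 pathway lists and 11 cell type lists were chosen with earlier results of these data known. All members were named, with the called genes of each pathway list, up to 4 others of smallest p, and the 5 genes closest to the members' mean. Alternatives covered the variance prior, a filter on dim genes, the groups fitted, normalization, array weights, the replicate number as a block, probe set choice, thresholds and arrays left out. Figures were drawn with matplotlib 3.10.9.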

Additional observations from a re-analysis of the deposited data

Results flagged for a closer look

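Lep in abdominal chow array 3 was 4.87, against 5.90 to 6.01 in the other 3 arrays of that group, and its gap to the nearest array was 0.905 of the group's range. Of 27 groups of 4 arrays tested in this way 1 stood out, and chance marks about 1 in 20.

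Lep was below the chow mean in every abdominal high-phosphate array and above it in every thoracic high-phosphate array. The difference of the diet changes, abdominal minus thoracic, was -0.50 ± 0.325 and was not called (limma adjusted p = 0.88). Lep was dim, around or below the array medians of 5.78 to 5.84, and the part of background in it was not tested.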

How the results depend on the processing

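The number of arrays limits the precision. In abdominal aorta 3 genes were called, where 7.01% of all genes were. Array weights gave 5 (9.13% of all genes), and an adjusted p under 0.1 gave 5 (10.4%). With 1 array left out 2 to 4 were called (4.02% to 10.1% of all genes). The 5 arrays with lymphocyte markers were also left out, which kept 1 abdominal array on high phosphate. In thoracic aorta 1 was called (2.47% of all genes), against 0 without the intensity trend (2.08%). Counts of 2 came with dim genes left out (4.47% of all genes), quantile normalization (2.78%), array weights (4.09%) and a replicate block within diet (2.48%). An adjusted p under 0.1 (4.47%) and an unadjusted p with a 1.5-fold limit (2%) gave 2 as well. With 1 array left out 0 to 1 were called, against 0.942% to 2.44% of all genes. The count was 0 without high-phosphate array 2 or 3 or chow array 1 or 4. The average over segments gave 2 to 4 with 1 array left out (8.82% to 12.3% of all genes). The difference between segments gave 0, against 2 by an unadjusted p with a 1.5-fold limit (1.15% of all genes). Between segments on high phosphate 3 were called (13.8% of all genes), against 6 with array weights (19.7%) and 5 at an adjusted p under 0.1 (20.1%). With 1 array left out 0 to 4 were called (7.64% to 18.1% of all genes). On chow 0 were called throughout, where the main fit called 4.78% of all genes. Same-numbered arrays of the 2 segments had residual correlations of 0.122, 0.079 and 0.031 on high phosphate. The best differently numbered arrays had -0.027, -0.003 and -0.007. On chow the same-numbered arrays had 0.03 to 0.069, against 0.005 to 0.141 for the best others. The labels do not say that the numbers mark pairs, and the main fit did not take them as pairs. With the number as a fixed replicate block thoracic Plin1 was -0.98 (adjusted p = 0.0153, called), thoracic Retn -0.80 (0.0763, not called), Adipoq between segments on high phosphate 0.41 (0.0813, not called) and Plin5 averaged over segments -0.34 (0.0451, called), by limma. Estimates near 0 turned sign. Quantile normalization gave 0.00 for thoracic Fabp4, 0.00 for the Plin5 difference and 0.01 for Fabp4 between segments on chow. The Plin5 difference was -0.02 after median centring, -0.04 with array weights and -0.07 without the 2 arrays with hepatocyte markers. Without the 5 arrays the values were 0.06 for Plin4 and 0.06 for Lep averaged over segments, 0.03 for the Pparg difference, -0.11 for Plin5 on high phosphate, and 0.01 for Fabp4 and -0.07 for Cidec on chow. With 1 array left out the ranges were -0.19 to 0.18 for Cidec and -0.14 to 0.00 for Pparg in thoracic aorta, -0.08 to 0.06 for averaged Plin4, -0.12 to 0.12 for the Plin5 difference, and, between segments on chow, -0.05 to 0.02 for Fabp4, -0.13 to 0.26 for Lep, -0.04 to 0.17 for Plin1 and -0.09 to 0.15 for Cidec. The cause was not tested. Of the gene values under all alternatives, 1097 kept direction and side of the threshold, 35 gained a call, 42 lost one and 32 turned sign.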
